A study of Mus musculus with 28 samples.

Results

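The cells described here are all 14372 annotated cells of the 4 day 3.5 libraries, out of 31596 cells in the 14 libraries of a single-nucleus multiome series of mouse embryoid bodies (EBs), in which RNA and open chromatin were read from the same nucleus. EBs are aggregates of differentiating embryonic stem cells, here guided towards hematovascular mesoderm. The Eomes-KD cells came from EBs given 100 nM dTAG-13 at day 3 and collected 12 h later, with 1875 cells in the first experiment (exp1) and 2663 in the second (exp2). The WT cells came from EBs given DMSO at the same time, with 2443 cells in exp1 and 7391 in exp2. Both conditions used the same line, Runx1Venus EomesmCherry-degron, so the tagged Eomes and the Runx1 reporter were present in WT as well, and WT here means the vehicle-treated degron line and not an untagged one. The experiments were EB differentiations performed weeks apart, so each Eomes-KD library had a WT library of its own experiment.

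EOMES is a T-box transcription factor that is switched on in the primitive streak (PS), the region of the gastrulating embryo where epiblast cells turn into mesoderm and endoderm. It is needed early for cardiac mesoderm, definitive endoderm and the blood-forming mesoderm of the yolk sac. dTAG-13 is a small molecule that brings a degron-tagged protein to an E3 ubiquitin ligase, after which the proteasome degrades it, so that a protein can be removed within a short window. Expression values per gene were not analysed here, so the depletion of EOMES and the markers of the cell types were not checked. A cell type below is the authors' annotation, set beside the atlas label of the same cell.

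Each cell carried 4 kinds of label. Its MOFA cluster and its cell type (a cluster or a group of clusters) came from RNA and chromatin of all libraries together. The exception was the type of primordial germ cells, which the authors set from the atlas label. The atlas label and the atlas stage of a cell came from RNA only, by mapping each library separately onto a mouse gastrulation atlas. Clusters were therefore built with the Eomes-KD cells in them, and a move of cells between clusters cannot be told apart from a change of state in cells that are otherwise alike, whereas the atlas was external to both conditions. All values are shares of annotated cells, and fewer cells of one type cannot be told apart from more cells of the others.

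The libraries differed in depth as well as in treatment. The median RNA count per cell was 22168 and 12983 in Eomes-KD (exp1 and exp2) and 17372 and 8207 in WT, so that within each experiment Eomes-KD was the deeper library, and exp1 was deeper than exp2 in both conditions. The median share of nearest atlas cells behind an atlas label was 0.80 and 0.64 in Eomes-KD and 0.92 in both WT libraries. The part of these score differences in the cell types and clusters was not tested, and that of depth only by the limits on RNA counts given below. Limits on the scores (over 0.5) were applied only to atlas labels and mean stages. Of 14274 distinct cell barcodes, 98 occurred in more than 1 of the 4 libraries. With 2 libraries against 2, an exact permutation test could not give a p below 0.333, so shares were tested with edgeR's quasi-likelihood test, in which the libraries of days 3.5 to 5 shared 1 estimate of the spread. Days 4.5 and 5 had 1 library per condition, so this estimate came from days 3.5 and 4. The 95% interval given with a single share (Wilson method) covers only its counting error.

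The first comparison asked which cell types were gained or lost 12 h after dTAG-13. Of the 8 cell types present, 2 were higher (25% of those tested) and 2 were lower (25%) in Eomes-KD. The table names 2 early mesoderm types, Early-Mes EOi and Early-Mes EOd, and no meaning was assumed for these codes. By place on the UMAP, a map that draws similar cells close together, the mean position of WT EOi cells lay nearer to PS (distances of 3.33 and 2.97 in exp1 and exp2) than to hematoendothelial (HE) precursors (4.90 and 4.77), and that of WT EOd cells lay nearer to HE precursors (3.16 and 2.89) than to PS (4.60 and 4.55).

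Early-Mes EOd had the lowest log2 change of the 8 types. It held 150 of 1875 cells (8.0%, interval 6.86 to 9.32) and 97 of 2663 cells (3.64%, 3.00 to 4.42) in Eomes-KD, and 1345 of 2443 cells (55.1%, 53.1 to 57.0) and 4051 of 7391 cells (54.8%, 53.7 to 55.9) in WT. The groups were far apart and WT was almost the same in both experiments, whereas the Eomes-KD libraries differed from each other beyond counting error. The log2 change was -3.24 (SE 0.72, adjusted p = 0.0155, edgeR). Early-Mes EOi took most of the room. It held 1253 cells (66.8%) and 1982 cells (74.4%) in Eomes-KD and 313 cells (12.8%) and 1302 cells (17.6%) in WT, a log2 change of 2.21 (SE 0.56, adjusted p = 0.0178, edgeR).

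Set against each other, there were 12.0 and 4.89 EOd cells per 100 EOi cells in Eomes-KD and 430 and 311 in WT, so the ratio of the early mesoderm types turned round in both experiments. Their sum moved far less, with 74.8% and 78.1% of cells in Eomes-KD and 67.9% and 72.4% in WT. The larger difference lay in which of the early mesoderm types the cells were assigned to.

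**Figure D1:**
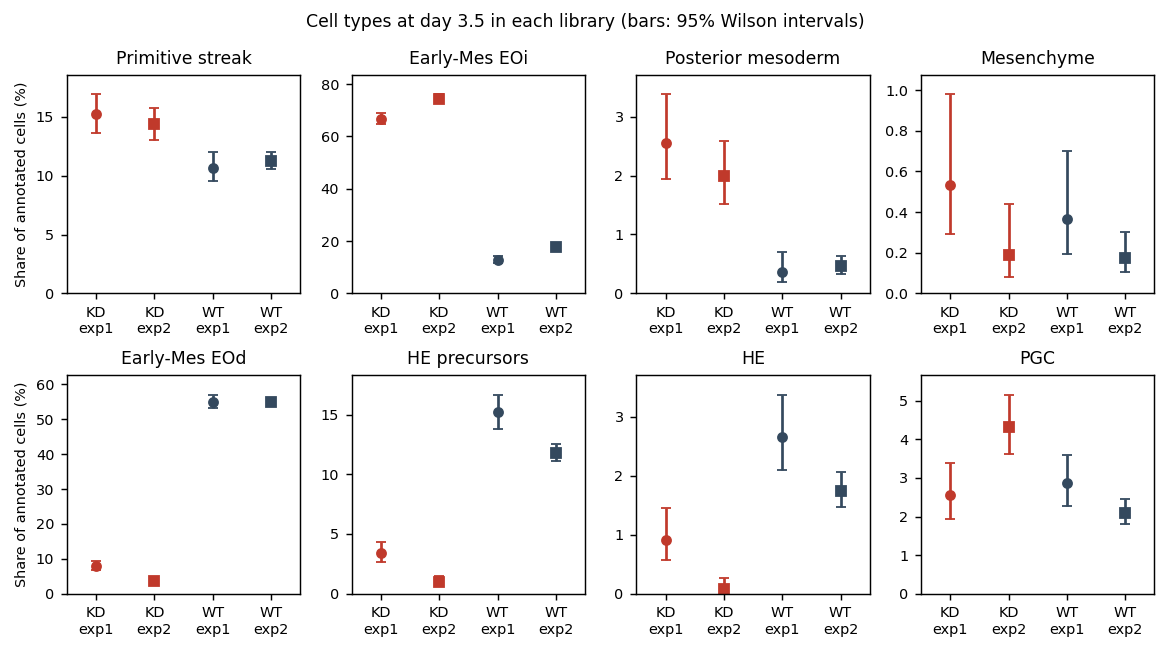
Share of annotated cells (%, y axis from 0) of each of the 8 cell types in the 4 day 3.5 libraries, Eomes-KD in red and WT in dark blue, circles for exp1 and squares for exp2, with bars for 95% Wilson intervals. Early-Mes EOd is at 8.0% and 3.64% in Eomes-KD and at 55.1% and 54.8% in WT, Early-Mes EOi shows the opposite order, and the groups overlap for mesenchyme and PGC.

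Downstream of early mesoderm, HE precursors, which lead to hemogenic and vascular endothelium, were lower in Eomes-KD. They numbered 64 cells (3.41%) and 27 cells (1.01%) in Eomes-KD and 371 cells (15.2%) and 873 cells (11.8%) in WT (log2 change -2.62, SE 0.84, adjusted p = 0.0388, edgeR). The fall was of the same order as that of EOd. Per 100 EOd cells there were 42.7 and 27.8 HE precursors in Eomes-KD and 27.6 and 21.6 in WT, so the few EOd cells left under dTAG-13 stood beside at least as many HE precursors, in proportion, as in WT (this ratio was not tested).

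HE cells, the next step of that path, were still rare at day 3.5 in either condition. There were 17 (0.907%) and 2 (0.0751%) in Eomes-KD and 65 (2.66%) and 129 (1.75%) in WT. The groups did not overlap, and in exp2 the Eomes-KD share was lower than that of WT by a factor of 23.2 (counting interval 6.30 to 194, since only 2 cells stand behind the lower value). The difference did not pass the test (log2 change -2.21, SE 1.03, adjusted p = 0.117, edgeR), but did with the experiment as a block (-2.46, adjusted p = 0.00292), with TMM factors (-3.18, adjusted p = 0.0177) and in the deeper cells of each library (-2.29, adjusted p = 0.0345). It missed the threshold with DESeq2 (adjusted p = 0.0602), with limma on transformed shares (0.258), in the day 3.5 libraries alone (0.181) and with EOd and HE precursors left out of the total (0.0800). Its size rested on the Eomes-KD library used, since the log2 change was -4.77 without Eomes-KD exp1 (adjusted p = 0.0254) and -1.27 without Eomes-KD exp2 (adjusted p = 0.327, edgeR). It also passed without either Eomes-KD library of day 4 (-2.23, adjusted p = 0.0236 in both).

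Posterior mesoderm, which the study placed on the way to the allantois, was higher in Eomes-KD. It held 48 cells (2.56%) and 53 cells (1.99%) in Eomes-KD and 9 cells (0.368%) and 34 cells (0.460%) in WT (log2 change 2.42, SE 0.55, adjusted p = 0.0155, edgeR), although limma on transformed shares did not call it (adjusted p = 0.434). The population was small, and its intervals did not touch between conditions, with 1.94 to 3.38% and 1.52 to 2.59% in Eomes-KD and 0.194 to 0.699% and 0.329 to 0.642% in WT. Allantois precursors and the later allantois, endothelial and blood types of the annotation held no cell in these libraries.

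The other types showed no change that passed the test. PS, the source of all of them, made up 15.2% and 14.3% in Eomes-KD and 10.7% and 11.3% in WT. The groups did not overlap, the fitted difference was 0.43 (SE 0.38, adjusted p = 0.410, edgeR), limma on transformed shares called it higher (adjusted p = 0.0402), and with EOd and HE precursors left out of the total its sign turned (-1.11, adjusted p = 0.0800, edgeR). Primordial germ cells (PGCs), named in the table from the atlas label, were 48 (2.56%) and 115 (4.32%) in Eomes-KD and 70 (2.87%) and 155 (2.10%) in WT, lower in exp1 and higher in exp2. Mesenchyme had 10 and 5 cells in Eomes-KD and 9 and 13 in WT.

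The calls depended on 3 of the 4 libraries. Without Eomes-KD exp1 all 4 calls remained and HE was called as well (2 higher and 3 lower, edgeR). Leaving out Eomes-KD exp2, WT exp1 or WT exp2 left no call in either direction (0 higher and 0 lower, edgeR, in each case), with an adjusted p of EOd from 0.0593 to 0.109, whereas its log2 change stayed between -3.91 and -2.78 over all leave-outs. Without 1 WT library of day 4 (either replicate), HE precursors lost the call (adjusted p = 0.0560), leaving 1 type lower and 2 higher. With TMM factors, which assume that most labels do not change, 0 types were higher and 3 lower, and the median log2 change over types moved by -0.62. Because shares sum to 100%, the same was asked without EOd and HE precursors in the total. EOi was then 75.4% and 78.1% in Eomes-KD and 43.1% and 52.8% in WT, and posterior mesoderm 2.89% and 2.09% in Eomes-KD and 1.24% and 1.38% in WT. Neither difference passed the test there (log2 changes of 0.68, adjusted p = 0.266, and 0.91, adjusted p = 0.206, edgeR), so the higher share of both was seen in the whole culture and was not shown among the remaining cells.

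At the level of the 14 clusters present, 3 were higher (21.4%) and 4 were lower (28.6%) in Eomes-KD. Each lower cluster but one belonged to EOd or HE precursors. Cluster 0 (EOd) held 2.29% and 2.40% of cells in Eomes-KD and 14.8% and 35.5% in WT (log2 change -3.42, SE 0.75, adjusted p = 0.0167, edgeR). Cluster 1 (EOd) held 5.71% and 1.28% in Eomes-KD and 40.4% and 19.4% in WT (-3.10, SE 1.03, adjusted p = 0.0388, edgeR). Cluster 14 was the HE precursor cluster, with the values given above (-2.62, adjusted p = 0.0388, edgeR).

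The fourth lower cluster belonged to PS and is described below. Among EOi clusters, cluster 9 was almost identical between experiments, at 31.1% and 31.7% in Eomes-KD and 2.66% and 2.58% in WT, with a log2 change like that of cluster 4 below (3.58, SE 0.81, adjusted p = 0.0167, edgeR). Cluster 8 was as reproducible, at 25.5% and 26.3% in Eomes-KD and 6.55% and 6.63% in WT (1.97, SE 0.46, adjusted p = 0.0167, edgeR). Cluster 6, the third EOi cluster, held 12.6% and 20.7% in Eomes-KD and 6.30% and 10.3% in WT and did not pass the test (1.00, SE 0.54, adjusted p = 0.148, edgeR, against 0.0450 with limma on transformed shares), although the share in Eomes-KD was 2.005 and 2.009 times that in WT in exp1 and exp2.

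Posterior mesoderm consisted of clusters 4 and 13. Cluster 4 had 24 and 16 cells in Eomes-KD and 4 and 2 cells in WT (log2 change 3.53, SE 0.90, adjusted p = 0.0203, edgeR), and its share in Eomes-KD exp2 was 22.2 times that in WT exp2 (counting interval 5.22 to 199). Cluster 13 had 25 and 37 cells in Eomes-KD and 5 and 33 cells in WT and missed the threshold (1.98, SE 0.76, adjusted p = 0.0599, edgeR), but passed it with the experiment as a block (2.13, adjusted p = 0.00115). Of the 46 day 3.5 cells of cluster 4, 39 (84.8%) mapped to lateral plate mesoderm, against 33 of the 100 cells of cluster 13. The atlas labels and the clusters thus separated the same small population into a part close to lateral plate mesoderm and a part for which nascent mesoderm was the more frequent label (57.0% of cluster 13).

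**Figure D2:**
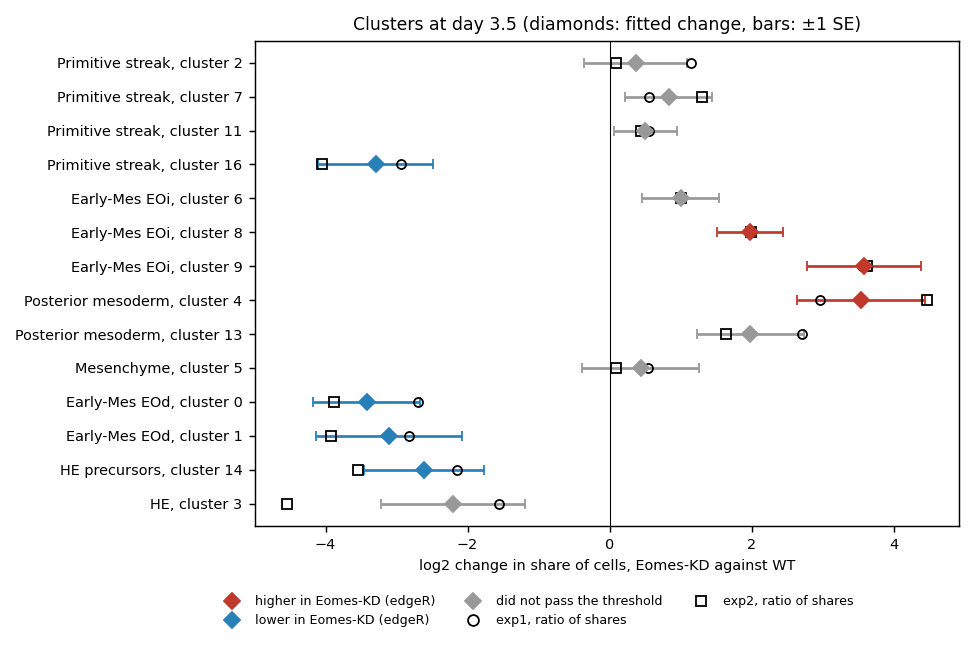
Log2 change in the share of cells (x axis, Eomes-KD against WT) of the 14 clusters, grouped by the cell type that each mainly belongs to. Diamonds with bars are fitted changes ±1 SE (red, higher; blue, lower; grey, did not pass the threshold), and open circles and squares are the ratios of shares within exp1 and exp2. Clusters 9 and 8 lie at 3.58 and 1.97 with both experiments on the same point, and the HE cluster has its experiments farthest apart.

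The counts of clusters called moved with the fit. With the experiment as a block, 4 were higher and 5 lower. With TMM factors 0 were higher and 5 lower (the median log2 change over clusters moved by -1.76), and DESeq2 called none in either direction, while limma on transformed shares called 4 in each, losing cluster 4 (adjusted p = 0.172) and adding clusters 6 and 11 (0.0450 and 0.0384). In the 4 libraries of day 3.5 alone, 2 were higher and 2 lower. Without Eomes-KD exp2 the numbers were 2 higher and 0 lower, without WT exp1 1 and 1, without WT exp2 0 and 0, and without either WT library of day 4 3 and 2. None of these fits turned the sign of a called cluster. Limiting the test to cells of 10000 to 20000 RNA counts, which brings the depth of the libraries together, gave 3 higher and 5 lower, and cluster 9 stayed at 3.26 (adjusted p = 0.000359, edgeR).

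Within EOi, the cells of Eomes-KD were spread differently over the 3 clusters. Cluster 9 took 46.4% and 42.5% of EOi cells in Eomes-KD and 20.8% and 14.1% in WT, and cluster 6 took 16.2% and 23.1% in Eomes-KD and 32.6% and 48.5% in WT. Cluster 8 took 37.4% and 34.5% in Eomes-KD and 46.6% and 37.3% in WT. Clusters 9 and 6 did not overlap between conditions, but neither passed the test over the 13 pairs of type and cluster (log2 changes of 1.36, SE 0.42, adjusted p = 0.153, and -1.05, SE 0.45, adjusted p = 0.286, edgeR). With the experiment as a block, cluster 9 was higher (1.45) and cluster 6 lower (-1.06), both with an adjusted p of 0.000879. Put as a ratio, there were 246 and 153 cells of cluster 9 per 100 of cluster 6 in Eomes-KD and 42.2 and 25.1 in WT.

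These EOi clusters differed in atlas labels over the 4 libraries together, which is a description of the clusters and not of the treatment. Of cluster 9, 67.9% mapped to nascent mesoderm and 25% to lateral plate mesoderm, with 0.297% to PS. Of cluster 6, 52.4% mapped to nascent mesoderm, 17.9% to PGC and 16.9% to PS, with 1.12% to lateral plate mesoderm. Cluster 8 lay between them in the PS label (3.83%), had the most nascent mesoderm (84.5%), and was like cluster 6 in lateral plate mesoderm (1.09%). The clusters also hold the PGC type, which gave nearly all PGC labels of cluster 6: of the EOi cells themselves, 0 and 13 in Eomes-KD and 2 and 8 in WT carried the PGC label.

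Within EOd, the pattern followed the experiment. Cluster 0 took 28.7% and 64.9% of EOd cells in Eomes-KD and 26.7% and 64.7% in WT, and cluster 1 took the rest. The difference between exp1 and exp2 was much the same in both conditions, and that between conditions was near 0 (log2 change 0.02 for cluster 0, SE 0.66, adjusted p = 0.976, edgeR). EOd cells that remained under dTAG-13 were thus divided over the clusters of EOd much as in the WT library of their own experiment. PGC cells lay mainly in cluster 6, at 70.8% and 80.9% in Eomes-KD and 74.3% and 82.6% in WT, and next in cluster 8, at 20.8% and 15.7% in Eomes-KD and 20% and 2.58% in WT, and neither passed.

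The only pair to pass the test (7.69% of 13, with 2 at an unadjusted p below 0.05) was cluster 16 within PS. It held 2 of 285 PS cells (0.702%) and 1 of 382 (0.262%) in Eomes-KD and 20 of 261 (7.66%) and 46 of 834 (5.52%) in WT (log2 change -3.75, SE 0.67, adjusted p = 0.0330, edgeR). As a share of all cells it fell too (log2 change -3.29, SE 0.81, adjusted p = 0.0268, edgeR), and within exp1 and exp2 the Eomes-KD share was lower than that of WT by factors of 7.67 and 16.6 (counting intervals 1.86 to 67.7 and 2.83 to 669). The other PS clusters did not move with it. Cluster 11 took 72.3% and 66.5% of PS cells in Eomes-KD and 70.1% and 61.8% in WT, and clusters 2 and 7 overlapped between conditions.

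In the whole series cluster 16 had 309 cells, and 309 of them were of days 3 and 3.5. It held 124 cells (4.46%) and 116 cells (6.90%) of the WT day 3 libraries, which both came from exp2, so exp1 had no day 3 library. The day 3 libraries were collected on the day when dTAG-13 was added to other cultures. Of the 309 cells of cluster 16, 184 mapped to nascent mesoderm and 123 to PS. It was therefore the PS cluster whose cells mapped mostly to mesoderm already leaving the streak. With few cells behind it, the within-PS call was lost in the deeper cells of each library (-4.76, adjusted p = 0.0801, edgeR), in cells of 10000 to 20000 RNA counts (-3.76, adjusted p = 0.0724), and without Eomes-KD exp1 (-4.51, adjusted p = 0.173) or exp2 (-3.17, adjusted p = 0.527). With the experiment as a block, 1 pair was higher and 2 lower, and without WT exp1 the numbers were 3 and 2.

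**Figure D3:**
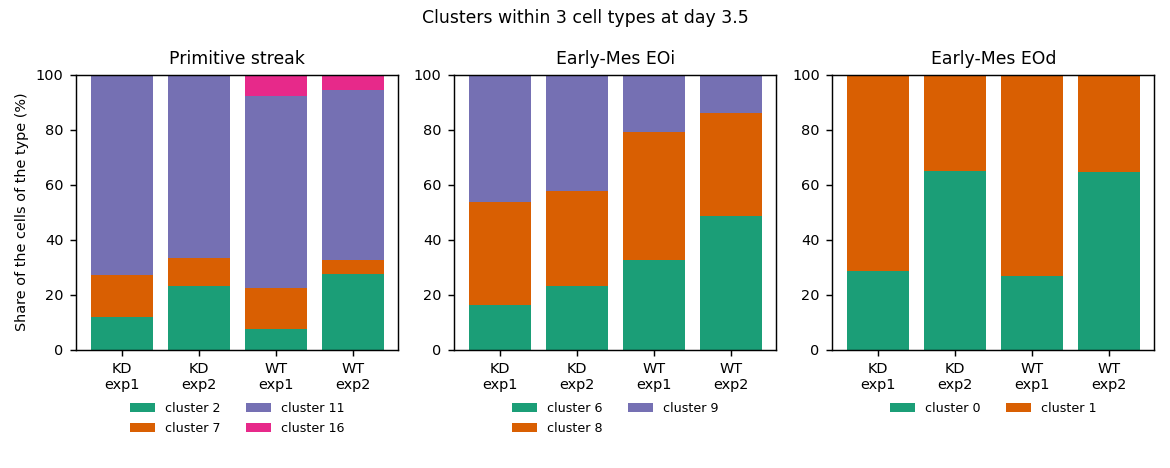
Share (%) of the cells of PS, Early-Mes EOi and Early-Mes EOd that fell into each cluster, 1 bar per day 3.5 library with Eomes-KD to the left of WT. Cluster 16 is 0.702% and 0.262% of PS in Eomes-KD and 7.66% and 5.52% in WT, cluster 9 is the larger part of EOi in Eomes-KD, and the EOd bars alternate with the experiment.

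The atlas labels gave a flatter picture than the clusters. Of 20 extended labels present, 14 had enough cells to test and 0 passed in either direction with edgeR (0% of those tested, with 0 at an unadjusted p below 0.05, and 0 with DESeq2). limma on transformed shares called 1 higher, the PS label (adjusted p = 0.0105). Nascent mesoderm, the first mesoderm to leave the streak, was the main label of every library, at 62.9% and 54.3% in Eomes-KD and 71.6% and 78.8% in WT (log2 change -0.36, SE 0.76, adjusted p = 0.761, edgeR). The groups did not overlap, but the difference was small beside that of the cell types, and both early mesoderm types carried this label. Nascent mesoderm made up 98.7% and 89.7% of EOd in Eomes-KD and 96.4% and 96.3% in WT, and 77.7% and 64.7% of EOi in Eomes-KD and 65.2% and 84.2% in WT.

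What changed was which cell type lay behind the label. Of the cells called nascent mesoderm, 12.5% and 6.02% were EOd in Eomes-KD against 74.1% and 67.0% in WT, and 82.5% and 88.8% were EOi in Eomes-KD against 11.7% and 18.8% in WT. Of the cells called lateral plate mesoderm, 77.5% and 87.4% were EOi in Eomes-KD and 24.5% and 21.7% in WT. The RNA of an Eomes-KD cell and of a WT cell could thus have the same nearest embryonic label and yet fall in different clusters of the joint RNA and chromatin map. These shares follow from the same cell counts as the cell types and were not tested again.

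**Figure D4:**
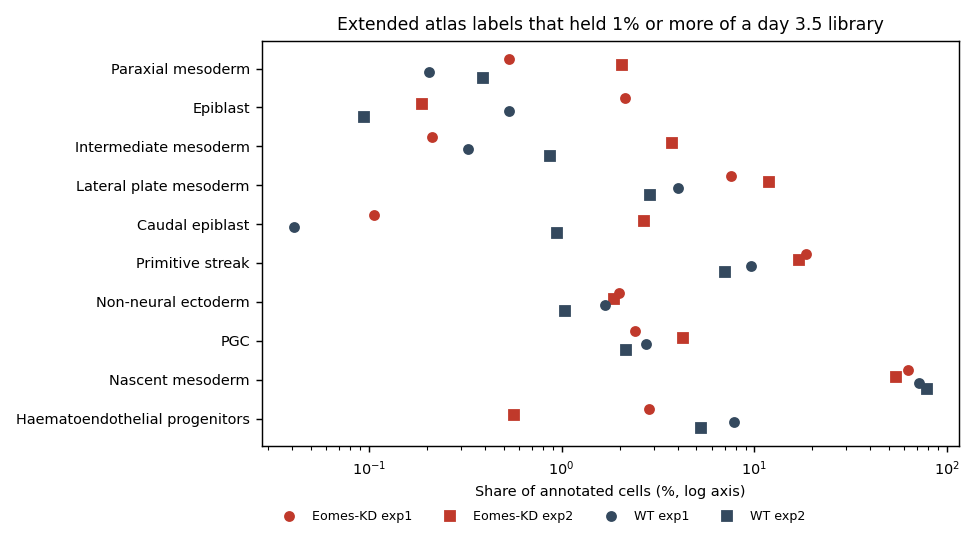
Share of annotated cells (%, log x axis) of the 10 extended atlas labels that held 1% or more of a day 3.5 library, Eomes-KD in red above WT in dark blue, circles for exp1 and squares for exp2. Nascent mesoderm is the main label in all 4 libraries, haematoendothelial progenitors lie lower and lateral plate mesoderm and PS higher in both Eomes-KD libraries, and caudal epiblast and intermediate mesoderm are higher in exp2 in both conditions.

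Several labels did not overlap between conditions without passing the test. Haematoendothelial progenitors, the label of the blood and vessel path, numbered 53 (2.83%) and 15 (0.563%) in Eomes-KD and 191 (7.82%) and 389 (5.26%) in WT (log2 change -1.95, SE 1.01, adjusted p = 0.443, edgeR). Lateral plate mesoderm, which gives rise to heart, limb and body wall tissue, numbered 142 (7.57%) and 318 (11.9%) in Eomes-KD and 98 (4.01%) and 212 (2.87%) in WT (1.505, SE 0.73, adjusted p = 0.443). The PS label was 18.5% and 17.0% in Eomes-KD and 9.66% and 7.02% in WT (1.09, SE 0.69, adjusted p = 0.447, and -0.42 with EOd and HE precursors left out of the total).

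The share of the PS label exceeded that of the PS cell type only in Eomes-KD, where 34.3% and 35.5% of the cells with this label were annotated as EOi, against 15.7% and 8.67% in WT. Paraxial mesoderm was 0.533% and 2.07% in Eomes-KD and 0.205% and 0.392% in WT (2.08, SE 1.05, adjusted p = 0.443, edgeR). Over labels grouped by origin, epiblast and streak together were 21.1% and 20.4% in Eomes-KD and 10.5% and 8.10% in WT, mesoderm other than nascent was 8.32% and 18.0% in Eomes-KD and 4.67% and 4.14% in WT, and endoderm was at or below 0.0819% in each library. Ectodermal labels were 2.24% and 2.48% in Eomes-KD and 2.46% and 1.37% in WT. Among them, non-neural ectoderm was 1.97% and 1.88% in Eomes-KD and 1.68% and 1.04% in WT, without overlap (0.51, SE 0.73, adjusted p = 0.735, edgeR). The PGC label was 2.40% and 4.28% in Eomes-KD and 2.74% and 2.16% in WT (0.45, SE 0.77, adjusted p = 0.735, edgeR).

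A set of labels differed between experiments in both conditions. Caudal epiblast had 2 (0.107%) and 71 cells (2.67%) in Eomes-KD and 1 (0.0409%) and 70 cells (0.947%) in WT. Intermediate mesoderm had 4 (0.213%) and 99 (3.72%) in Eomes-KD and 8 (0.327%) and 64 (0.866%) in WT. Within exp2 both shares were higher in Eomes-KD. Epiblast was lower in exp2, with 40 (2.13%) and 5 cells (0.188%) in Eomes-KD and 13 (0.532%) and 7 (0.0947%) in WT. Its share was higher in Eomes-KD within each experiment. The 10 labels below 1% in every library held 52 cells in Eomes-KD and 76 in WT.

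Labels from the first version of the atlas gave the same order of conditions for haematoendothelial progenitors and PS as shares of all cells. Of 12 tested, 0 passed with edgeR or DESeq2 (0%, 2 at an unadjusted p below 0.05). Those 2 were PS and extraembryonic (ExE) mesoderm. ExE mesoderm was 1.39% and 4.58% in Eomes-KD and 0.941% and 0.663% in WT, without overlap. Its log2 change was 1.90 (SE 0.74, adjusted p = 0.209, edgeR), and 1.28 with EOd and HE precursors left out of the total (adjusted p = 0.409, edgeR). Haematoendothelial progenitors were 1.81% and 0.263% in Eomes-KD and 6.59% and 4.21% in WT (log2 change -2.39, SE 0.96, adjusted p = 0.209, edgeR), and passed with the experiment as a block (-2.63, adjusted p = 0.0235). PS was 17.6% and 17.2% in Eomes-KD and 9.13% and 6.95% in WT (1.11, adjusted p = 0.209, edgeR, and adjusted p = 0.00231 with limma). Mixed mesoderm, a label that the extended atlas no longer has, stayed at 26.6% and 26.0% in Eomes-KD and 26.2% and 25.8% in WT (0.02, SE 0.38, adjusted p = 0.967, edgeR). Without Eomes-KD exp1, 2 of these labels were higher and 1 lower.

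Within cell types, atlas labels were compared over 26 pairs of type and label, of which 0 passed (0%, 0 at an unadjusted p below 0.05, lowest adjusted p = 0.805, edgeR). PS cells mapping to nascent mesoderm were 1.75% and 6.28% in Eomes-KD and 8.05% and 28.4% in WT (log2 change -2.17, SE 1.04), lower in Eomes-KD within each experiment and higher in exp2 within each condition. PS cells mapping to PS were 80.0% and 76.2% in Eomes-KD and 74.3% and 54.3% in WT. EOi cells mapping to lateral plate mesoderm were 8.78% and 14.03% in Eomes-KD and 7.67% and 3.53% in WT (1.05, SE 0.60). In exp1 the conditions were thus nearly level, and in exp2 they were apart. EOi cells mapping to PS were 9.50% and 8.12% in Eomes-KD and 11.8% and 3.46% in WT, and PS cells mapping to epiblast were 14.04% and 1.31% in Eomes-KD and 4.98% and 0.839% in WT. Both pairs overlapped between conditions.

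The HE precursors that were present under dTAG-13 carried the extended hematovascular label in shares no lower than in WT of the same experiment. Haematoendothelial progenitors made up 32 of 64 (50.0%) and 9 of 27 (33.3%) HE precursors in Eomes-KD and 128 of 371 (34.5%) and 263 of 873 (30.1%) in WT (log2 change 0.38, SE 0.40, adjusted p = 0.805, edgeR). HE precursors mapping to nascent mesoderm were 43.8% and 51.9% in Eomes-KD and 58.8% and 63.7% in WT, without overlap (-0.36, SE 0.35, adjusted p = 0.805), and those mapping to lateral plate mesoderm were 6.25% and 11.1% in Eomes-KD and 6.74% and 5.15% in WT. With labels from the first version of the atlas, the haematoendothelial share of HE precursors was instead lower in Eomes-KD within each experiment. It was 16 of 64 (25%) and 4 of 27 (14.8%) in Eomes-KD. In WT it was 98 of 371 (26.4%) and 181 of 873 (20.7%), so the conditions overlapped, and this difference was not tested. With 91 HE precursors in Eomes-KD, a modest shift could not have been detected. PGC cells mapped to the extended PGC label in 93.8% and 87.8% of cases in Eomes-KD and 92.9% and 96.1% in WT, and to nascent mesoderm in 4.17% and 11.3% in Eomes-KD and 5.71% and 3.23% in WT. All PGC cells carried the PGC label of the first atlas version, since the type was set by label transfer. Their agreement with the extended label was therefore largely given in advance.

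The rarest types had too few cells for this test. Posterior mesoderm mapped to lateral plate mesoderm in 47.9% and 52.8% of cells in Eomes-KD and 77.8% and 41.2% in WT, and to nascent mesoderm in 41.7% and 39.6% in Eomes-KD and 22.2% and 50.0% in WT. HE cells mapped to haematoendothelial progenitors in 13 of 17 and 2 of 2 cells in Eomes-KD and 61 of 65 and 115 of 129 in WT, with 3 and 0 cells in Eomes-KD and 1 and 6 in WT mapping to allantois endothelium. Mesenchyme mapped to lateral plate mesoderm in 3 and 2 cells in Eomes-KD and 6 and 6 in WT. It mapped to nascent mesoderm in 2 and 3 cells in Eomes-KD and 3 and 6 in WT. Non-neural ectoderm was the label of 4 and 0 mesenchyme cells in Eomes-KD and 0 and 1 in WT. The composition of these types could not be distinguished between conditions at such counts.

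The mapped stage of a cell is the age of its nearest atlas embryos, in embryonic days (E). Most cells mapped to E7.25, at 67.5% and 65.9% in Eomes-KD and 69.2% and 68.9% in WT. E7.0 held 25.9% and 12.5% in Eomes-KD and 25.6% and 24.3% in WT, and E7.5 held 5.55% and 17.9% in Eomes-KD and 3.93% and 5.41% in WT. The Eomes-KD library of exp2 stood apart from the other 3, with less E7.0 and more E7.5. Of 6 stages tested, 0 passed with edgeR (0%, 0 at an unadjusted p below 0.05), while DESeq2 called E7.0 and E7.25 lower (log2 changes of -2.88 and -2.43), values far from the ratios of the shares above. Without Eomes-KD exp1 2 stages were higher, and without Eomes-KD exp2 1 was higher.

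Within each cell type the mean stage hardly differed between conditions. For 5 types with 20 or more cells in each library, the differences of Eomes-KD minus WT ran from -0.031 (PS) to 0.029 (EOi) embryonic days, and 0 passed with limma (0%, 0 at an unadjusted p below 0.05, lowest adjusted p = 0.712). In cells with a stage score over 0.5, the differences were 0.044 (EOi), 0.014 (EOd) and -0.013 (PS), each with an adjusted p of 0.726 (limma). EOd averaged E7.20 and E7.25 in Eomes-KD and E7.22 and E7.21 in WT (difference 0.015, SE 0.038). EOi averaged E7.20 and E7.30 in Eomes-KD and E7.19 and E7.25 in WT (difference 0.029, SE 0.056).

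For EOi and PS the step from exp1 to exp2 was in the range of the step between conditions or above it. For EOi it was 0.096 in Eomes-KD and 0.052 in WT, and for PS 0.100 in Eomes-KD and 0.030 in WT, against condition differences of 0.0068 and 0.051 (EOi) and -0.066 and 0.0045 (PS) in exp1 and exp2. The change in cell type makeup at 12 h was therefore not accompanied by a detectable shift in mapped age within the types. HE precursors averaged E7.15 and E7.16 in Eomes-KD and E7.16 and E7.12 in WT (difference 0.015, SE 0.039).

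On the UMAP, the early mesoderm types lay closer to each other in Eomes-KD. The distance between the mean positions of EOd and EOi was 1.45 and 1.13 in Eomes-KD and 2.72 and 2.06 in WT. EOi lay nearer to HE precursors in Eomes-KD (3.77 and 3.95) than in WT (4.90 and 4.77) and farther from PS (3.95 and 3.70 in Eomes-KD, 3.33 and 2.97 in WT). EOd to HE precursors was similar, at 3.13 and 3.15 in Eomes-KD and 3.16 and 2.89 in WT.

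The shift of a type's mean position between conditions could be set against that between experiments. For EOd it was 1.19 and 0.998 between conditions (exp1 and exp2) and 0.183 and 0.506 between experiments (Eomes-KD and WT), and for HE precursors 1.105 and 0.885 against 0.302 and 0.0944. For PS the conditions were 0.0331 and 0.126 apart, less than the experiments (0.316 and 0.414). For EOi and posterior mesoderm the ranges overlapped, with 0.657 and 0.903 between conditions against 0.288 and 0.750 between experiments (EOi), and 0.426 and 0.997 against 0.266 and 0.698 (posterior mesoderm). Mesenchyme, with few cells, moved 1.27 and 1.43 between conditions against 0.865 and 0.173 between experiments. For HE the ranges overlapped (0.437 and 0.972 against 0.593 and 0.180), and PGC moved less (0.300 and 0.206 against 0.574 and 0.547). A move larger than that between experiments was thus seen for EOd, HE precursors and mesenchyme, and not for PS or PGC. UMAP distances have no unit and do not keep true distances, so these values carry no test.

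**Figure D5:**
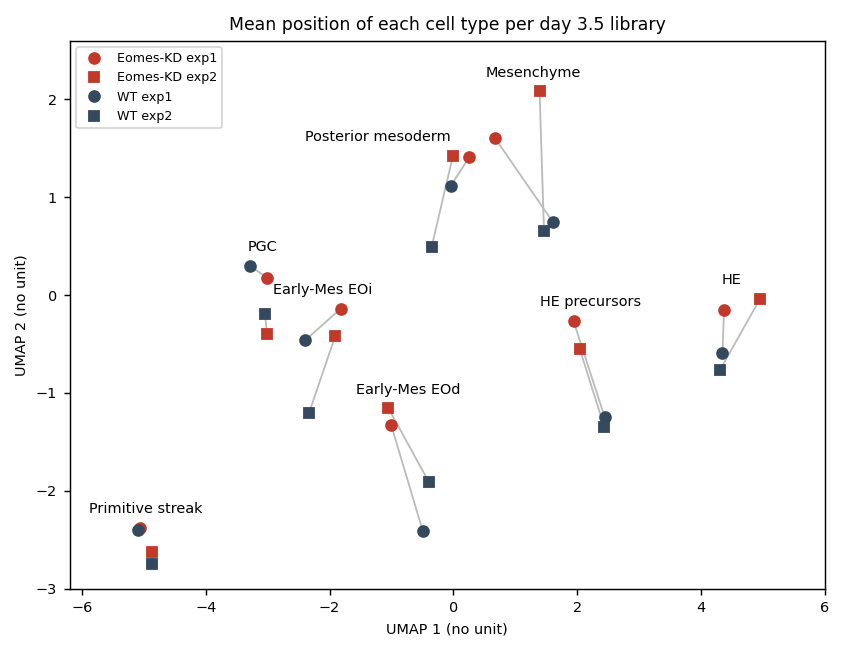
Mean UMAP position (both axes without a unit) of each cell type in each day 3.5 library, Eomes-KD in red and WT in dark blue, circles for exp1 and squares for exp2, with grey lines joining the libraries of an experiment. PS positions of an experiment nearly coincide, and Early-Mes EOd and EOi are 1.45 and 1.13 apart in Eomes-KD and 2.72 and 2.06 apart in WT.

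The difference between conditions at day 3.5 was last compared with that at day 4. No cell type (0 of 8 called, 1 at an unadjusted p below 0.05), cluster (0 of 14, 1 unadjusted), extended label (0 of 14, 0 unadjusted) or stage (0 of 6, 0 unadjusted) differed between the days in edgeR's interaction test, which does not show that the effects were equal. The unadjusted case was mesenchyme, which consists of cluster 5 (interaction 3.59, SE 1.11, adjusted p = 0.132). Cluster 16 had 0 cells in every day 4 library, so its interaction (SE 6363) could not have been called. That of cluster 0 had an SE of 8.71, so for these clusters the test says nothing about a difference between days. For EOd the interaction was -0.48 (SE 1.12) and for EOi 0.68 (SE 0.77), so either day could exceed the other by a wide margin at this number of libraries.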

How the data were processed

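Per the labels, nuclei of the 4 day 3.5 cultures were profiled with the 10x multiome assay, and each library took a capped number of nuclei. The authors processed reads with Cell Ranger ARC 2.0.1 on mm10, filtered cells, removed doublets with scds, clustered RNA and chromatin together with MOFA+ and deposited 1 table of annotated cells, of whose 28 columns 17 were used. The deposited RNA counts and gene numbers per cell were not normalized (at least 2500 genes, 4263 to 92069 RNA counts). Mitochondrial and ribosomal percent values (at most 24.84 and 29.13) and the doublet score (at most 1.25) were computed by the authors, and UMAP coordinates are a deposited score without a unit. Atlas label and stage scores are a deposited fraction, the share of 25 nearest atlas cells behind a call.

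Cells per label and library were tested with edgeR 4.0.16 (R 4.3.3; quasi-likelihood, no abundance trend, annotated cells as library size, labels with 10 or more cells, Benjamini-Hochberg threshold 0.05). The 12 libraries of days 3.5 to 5 shared 1 spread, which came from days 3.5 and 4, since days 4.5 and 5 had 1 library per condition. Within-type tests used the 4 libraries of day 3.5, types with 20 or more cells in each and the cells of the type as offset. Mean stages were tested with limma 3.58.1. Alternatives were the experiment as a block, TMM factors, DESeq2 1.42.0, limma on arcsine square root shares, other sets of libraries, other minimums, deeper cells only, the total without EOd and HE precursors, and each library left out. Atlas labels and mean stages were also fitted in cells with a score over 0.5. The first atlas labels and the window of 10000 to 20000 RNA counts were added after seeing the data. Every cell type was reported, and clusters, extended labels or stages were named when they passed their test or reached 1% of a day 3.5 library. Of the first atlas labels, some that reached 1% were not named. Within types, pairs with a cluster or extended label were named at 10% of the type or if they passed. The labels' experiment pairs the libraries (EB differentiations weeks apart), and deviations of same-experiment libraries from the day 3.5 group means correlated at 0.40 to 0.91 over the 5 kinds of label. The cells and comparisons were chosen with earlier results of these data known. The count tests were also run on simulated counts that held no effect of the experiment, and the outcome is not given here. With 0 cells found (floor of 3 cells), shares of up to 0.160% and 0.113% in Eomes-KD and 0.123% and 0.0406% in WT remain possible. Tables and figures used Python 3.11.15, matplotlib 3.10.9, scipy 1.17.1, pandas 2.3.3 and numpy 2.4.6.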

Additional observations from a re-analysis of the deposited data

How the results depend on the processing

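No called cell type, cluster or pair of type and cluster turned its sign: of 110 combinations of a named call (12 in all) and a setting other than leaving out a library, 86 kept their side of the threshold and 24 missed it, and of 136 combinations of a call and a library left out, 99 and 37. Each library of days 4.5 and 5 was the only one of its day and condition. Leaving it out hardly touched the day 3.5 contrast (EOd adjusted p = 0.0155 each time, edgeR), so those combinations say little about stability. Cell types higher went from 2 to 0 with TMM factors and with EOd and HE precursors left out. That exclusion removes the 2 types called lower from the test, so its 0 lower was fixed by construction. Clusters higher went from 3 to 0 under TMM, DESeq2 and that exclusion, and clusters lower from 4 to 0 with DESeq2 and to 2 in the day 3.5 libraries alone. The exclusion removes clusters 0, 1 and 14 by construction, and its 2 lower were cluster 16 and, newly called, cluster 3 (adjusted p = 0.0472, edgeR). TMM moved the median log2 change over atlas labels by -1.05, over stages by -2.18 and over first atlas labels by -0.75. Within types, the replicate block (the experiment) gave 1 pair higher and 2 lower, against 0 and 1 without it, and the deeper cells and the window of RNA counts gave 0 lower. limma gave 1 higher among atlas labels and 1 among first atlas labels, the block 1 lower among first labels, and DESeq2 2 stages lower. The block changed no other call than those of HE, clusters 3 and 13, EOi clusters 6 and 9 and the first haematoendothelial label. Leaving out a library gave 0 to 2 cell types higher and 0 to 3 lower, 0 to 3 clusters higher and 0 to 5 lower, 0 to 3 pairs higher and 0 to 2 lower, 0 to 2 stages higher, and 0 to 2 first labels higher and 0 to 1 lower. The cause of these moves was not tested, except that leaving out a library leaves fewer samples. The smaller of these groups, with 19 HE cells and 3 cluster 16 cells in Eomes-KD, are limited by the number of cells.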
